A study of Mus musculus with 12 samples.

Results

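The folding machinery of the endoplasmic reticulum (ER) and its stress signalling were described by 32 genes in RAW 264.7 cells, a mouse macrophage line. The genes were picked by name, with earlier results of these data known, from the 24421 gene symbols of the deposited expression table. Of these, 31 were among the 10899 genes with at least 1 CPM (a count per 1000000 gene reads) in at least 2 of the 12 libraries. The 1 remaining gene, Derl3, had 1 to 7 reads in a library and was not tested. The mRNA sequencing libraries fell into 6 groups of 2. They were Parp14 -/- cells (KO) given LPS for 2 h, untreated KO cells, wild type cells (WT) given LPS plus a Jak inhibitor for 2 h, WT cells given LPS for 2 h, WT cells given the Jak inhibitor for 2 h, and untreated WT cells. Parp14 encodes an ADP-ribosyltransferase, LPS is a bacterial lipopolysaccharide sensed by Toll-like receptor 4, and Jak kinases carry signals of interferon receptors. All cells carried the strain label BALB/c. How many KO clones there were, which part of Parp14 was deleted and which inhibitor was used at what dose the labels do not say, so genotype and clone cannot be told apart. An inhibitor-treated KO group was not analysed here. Nothing in the labels says that the 2 libraries of a group came from separate cultures, and the spread behind each p-value is that of these samples and may be technical.

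Secreted and membrane proteins enter the ER through the Sec61 channel and fold there with the help of chaperones, disulfide isomerases and lectins. Proteins that fail to fold are sent back to the cytosol and degraded, a process called ER-associated degradation (ERAD). When unfolded proteins build up, 3 sensors start the unfolded protein response: IRE1 (Ern1) splices the mRNA of the transcription factor XBP1, ATF6 is cut to release a transcription factor, and PERK (Eif2ak3) slows translation and raises ATF4. XBP1 and ATF6 activate genes for chaperones and ERAD. In macrophages, IRE1 and XBP1 are also known to be engaged by Toll-like receptors. Here reads were counted per gene, so spliced and unspliced Xbp1 mRNA could not be separated, nor could the cutting of ATF6 or the phosphorylation of the sensors be seen.

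The best-known DNA element through which this response acts is the ER stress response element (ERSE), searched here on both strands as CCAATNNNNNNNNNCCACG, and its shorter relative ERSE-II, searched on both strands as ATTGGNCCACG. Both end in CCACG and can overlap by sharing it, but no window of these genes held both. RefSeq promoter windows on GRCm38.p6, from 250 bases before to 50 bases after the transcription start, were matched by symbol for 26 of the 32 genes. Some symbols have several windows, Derl2 among these genes, and each symbol was counted once. ERSE lay in a window of 9 of the 26 genes (34.6%), against 37 of the 27025 symbols with a window (0.137%). ERSE-II lay in 2 of the 26 (7.69%), against 12 of the 27025 (0.0444%). The genes were picked for their part in ER folding and this response. Larger shares among them follow largely from that choice and are not a test of it. The 7 windows shown are those that hold an element and belong to a gene that was higher in untreated KO than in untreated WT cells, as described further on, with the matched element in capitals on the strand of the gene.
Hspa5: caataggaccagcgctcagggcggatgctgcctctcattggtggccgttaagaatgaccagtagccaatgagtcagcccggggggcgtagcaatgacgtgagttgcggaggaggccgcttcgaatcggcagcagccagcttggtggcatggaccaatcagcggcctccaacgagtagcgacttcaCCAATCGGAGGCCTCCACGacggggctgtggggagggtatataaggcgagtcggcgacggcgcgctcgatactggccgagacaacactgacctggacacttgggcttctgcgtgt
Hsp90b1: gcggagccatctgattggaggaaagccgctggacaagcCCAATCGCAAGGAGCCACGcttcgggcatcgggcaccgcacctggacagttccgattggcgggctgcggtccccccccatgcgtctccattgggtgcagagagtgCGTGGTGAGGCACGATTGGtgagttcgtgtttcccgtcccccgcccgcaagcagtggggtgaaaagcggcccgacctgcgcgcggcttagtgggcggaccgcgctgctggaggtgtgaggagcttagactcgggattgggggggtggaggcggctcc
Creld2: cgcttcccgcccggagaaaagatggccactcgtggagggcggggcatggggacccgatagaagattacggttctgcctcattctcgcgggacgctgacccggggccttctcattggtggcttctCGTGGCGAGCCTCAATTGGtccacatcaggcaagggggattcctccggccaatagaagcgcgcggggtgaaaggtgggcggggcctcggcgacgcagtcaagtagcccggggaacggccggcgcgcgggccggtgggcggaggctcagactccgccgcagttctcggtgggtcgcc
Dnajc3: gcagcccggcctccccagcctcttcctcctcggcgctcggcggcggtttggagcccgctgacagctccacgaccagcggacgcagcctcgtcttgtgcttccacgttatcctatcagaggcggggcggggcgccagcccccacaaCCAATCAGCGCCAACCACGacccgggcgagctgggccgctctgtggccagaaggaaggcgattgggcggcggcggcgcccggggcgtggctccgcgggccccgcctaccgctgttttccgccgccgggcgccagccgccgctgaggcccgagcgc
Pdia6: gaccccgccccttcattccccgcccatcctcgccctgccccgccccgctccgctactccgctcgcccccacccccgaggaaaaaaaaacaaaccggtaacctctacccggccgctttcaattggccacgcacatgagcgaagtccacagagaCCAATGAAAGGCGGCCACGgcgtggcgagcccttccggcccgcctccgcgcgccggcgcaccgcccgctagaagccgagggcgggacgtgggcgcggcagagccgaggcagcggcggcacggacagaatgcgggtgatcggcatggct
Herpud1: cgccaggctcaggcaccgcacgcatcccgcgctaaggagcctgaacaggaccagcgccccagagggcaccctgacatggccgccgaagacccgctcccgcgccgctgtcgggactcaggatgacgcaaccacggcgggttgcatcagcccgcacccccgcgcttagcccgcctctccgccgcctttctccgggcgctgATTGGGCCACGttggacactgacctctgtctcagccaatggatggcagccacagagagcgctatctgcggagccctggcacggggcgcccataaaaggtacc
Dnajb11: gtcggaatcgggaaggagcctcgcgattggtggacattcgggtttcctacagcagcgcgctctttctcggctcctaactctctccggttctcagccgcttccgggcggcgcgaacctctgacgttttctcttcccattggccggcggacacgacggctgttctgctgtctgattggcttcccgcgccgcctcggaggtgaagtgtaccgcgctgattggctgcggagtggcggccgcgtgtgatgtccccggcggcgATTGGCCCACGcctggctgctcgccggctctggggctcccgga
The windows lie at chr2:34771840-34772139 (Hspa5, plus strand), chr10:86705395-86705694 (Hsp90b1, minus strand), chr15:88819396-88819695 (Creld2, plus strand), chr14:118937682-118937981 (Dnajc3, plus strand), chr12:17266339-17266638 (Pdia6, plus strand), chr8:94386179-94386478 (Herpud1, plus strand) and chr16:22857595-22857894 (Dnajb11, plus strand). Hspa5 held ERSE from base -65 to base -47 relative to the transcription start. Hsp90b1 held ERSE at 2 places, from base -212 to base -194 and, reversed, from base -107 to base -89. In Herpud1 the ERSE-II ran from base -52 to base -42, and in Dnajb11 it lay after the start, from base 7 to base 17. The other windows with an element were those of Calr, Canx, Syvn1 and Derl3, all with ERSE. A match describes the letters of a window and is not evidence of binding, and a window without a match says only that these letters are absent from it.

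**Figure D1:**
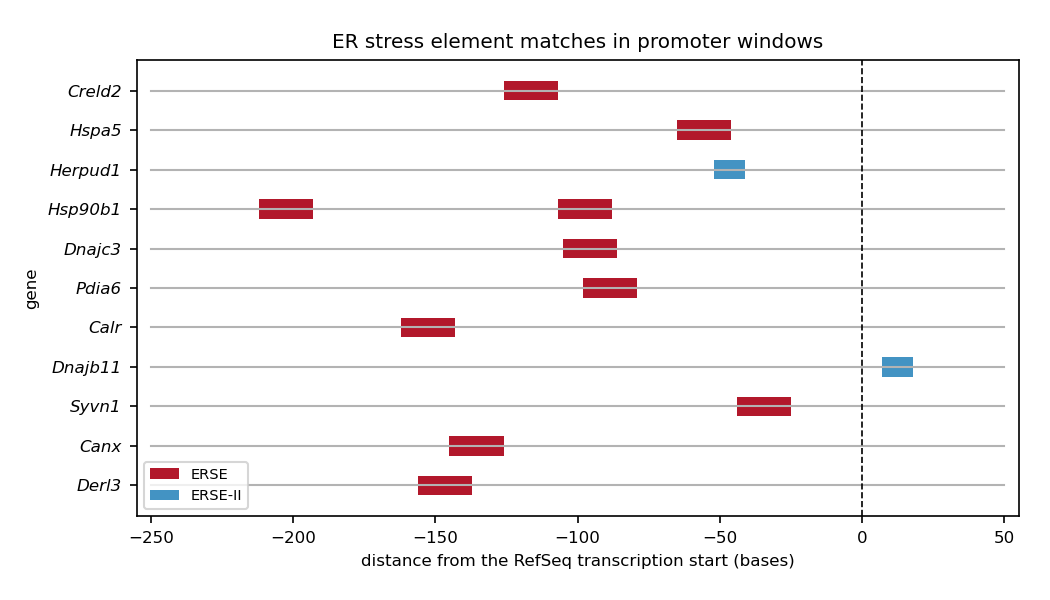
Position of ERSE (red) and ERSE-II (blue) matches in the promoter windows of the 11 genes that hold one, in bases from the RefSeq transcription start (dashed line). Grey lines span the window from 250 bases before to 50 bases after the start, and Dnajb11 is the 1 gene with its match after the start.

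Each library held about 35900000 to 45700000 gene reads, which were 58.9 to 64.1% of all counted alignments, and the 32 genes took 451211 to 717469 of them. Parp14 itself, the check of the genotype, stood at 10.0 and 11.97 CPM in untreated KO cells, against 76.4 and 99.7 CPM in untreated WT cells. With LPS it stood at 34.9 and 40.5 CPM in KO cells, against 315 and 419 CPM in WT cells. The log2 changes were -2.89 untreated and -3.24 with LPS. All 8 macrophage markers were above 1 CPM in every library, while the markers of T cells, B cells, epithelial cells and fibroblasts and the measured markers of neutrophils were below 1 CPM in every library. Of 3 plasma cell markers, a cell type rich in ER, Sdc1 was at 19.2 to 40.5 CPM and Jchain and Mzb1 were at most at 0.0735 CPM. Because these are bulk libraries, fewer cells with a high level and less RNA per cell cannot be told apart.

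Levels were compared between genes as CPM per kilobase of merged GENCODE M21 exons. In KO cells with LPS the highest were the luminal Hsp70 chaperone Hspa5 (BiP) at 833, the calcium-binding lectin Calr at 616 and the luminal Hsp90 chaperone Hsp90b1 (GRP94) at 569 CPM per kilobase. In untreated WT cells the highest were Calr at 542, Hsp90b1 at 464, Hspa5 at 460.3, and the disulfide isomerases P4hb at 352 and Pdia3 at 333 CPM per kilobase. At the low end in untreated WT cells, apart from Derl3, were Ern1 at 2.23, the co-chaperone Dnajb9 at 3.76 and the derlin Derl2 at 7.39 CPM per kilobase. The merged exon length counts exons that these cells may not use, so a level per kilobase can understate genes with many alternative exons.

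**Figure D2:**
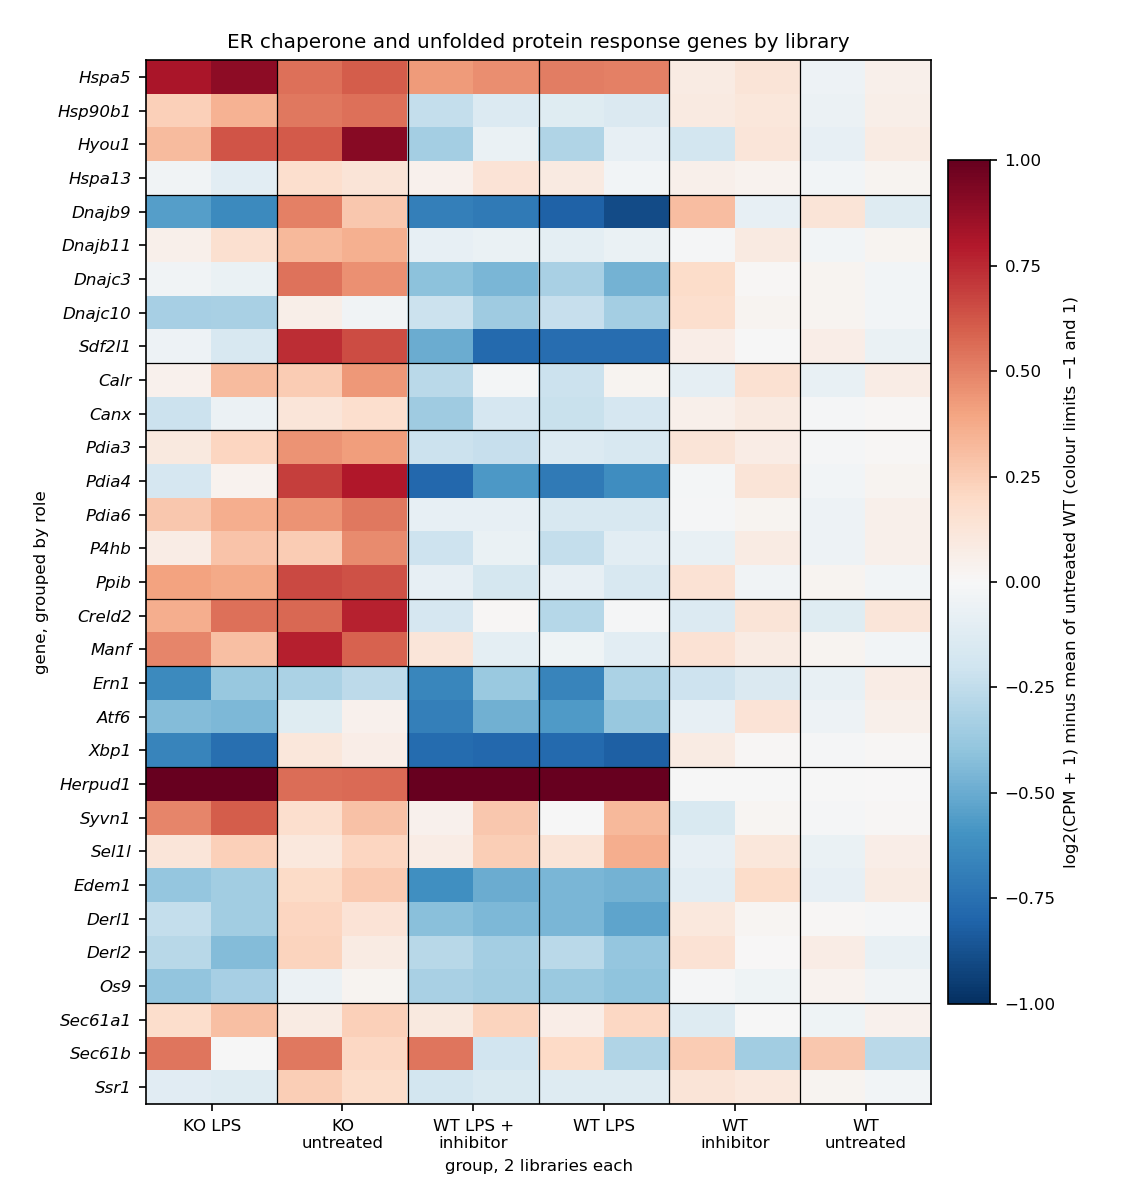
Each of the 31 tested genes (rows, grouped by role) in each of the 12 libraries (columns, 2 per group): log2(CPM + 1) minus the mean of the 2 untreated WT libraries, red above and blue below it. Colour stops at -1 and 1, and only Herpud1 in the 6 LPS libraries goes past the upper limit. The untreated KO columns are red for most chaperones, isomerases and secreted proteins, and Xbp1 is blue in all LPS columns.

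The first comparison asked how the folding machinery differs between KO and WT cells at rest. Of the 31 tested genes, 14 rose in untreated KO against untreated WT cells and 0 fell, at a Benjamini-Hochberg adjusted p under 0.05 over all tested genes in limma on log2(CPM + 1). Among all tested genes 4.31% were higher and 5.37% lower in the same comparison. The changes were modest, with ratios of group means between 1.16 and 1.70 for the 14, and the median log2 change of the 31 was 0.35, against -0.01 over all tested genes. At an unadjusted p under 0.05 there were 20 higher and 0 lower, against 8.7% and 11.4% of all tested genes. The count from edgeR on reads recovered from the CPM was 14 higher and 0 lower, against 4.39% and 4.86%. The limma fit above has no term for the replicate number, which pairs the libraries across groups. With this number as a block, 25 were higher and 1, Ern1, was lower, against 10.9% and 13.7% of all tested genes. The 2 libraries of each group did not overlap for 26 genes that were higher in KO, against 21.4% of all tested genes, and for 1 that was lower, against 26.6%. Together the 32 genes took 1.74 and 1.83% of the gene reads in untreated KO libraries, against 1.30 and 1.37% in untreated WT libraries.

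Among the luminal Hsp70 and Hsp90 chaperones, 3 of 4 rose in untreated KO cells. Hspa5, the master chaperone that also holds the 3 sensors inactive, was at 2856 and 2966 CPM in untreated KO cells, against 1881 and 2012 CPM in untreated WT cells. Both KO libraries lay above both WT libraries, and the log2 change was 0.58 ± 0.07 (SE, n = 2 each, limma adjusted p = 0.000923). Hsp90b1, which folds Toll-like receptors and integrins, was at 2691 and 2747 CPM in KO, against 1800.2 and 1944 CPM in WT cells (log2 change 0.54 ± 0.08, adjusted p = 0.00185), again without overlap. For Hyou1 (GRP170), which exchanges the nucleotide of BiP, the values were 839 and 1026 CPM in KO and 515 and 579.7 CPM in WT cells (log2 change 0.76 ± 0.16, adjusted p = 0.0144). This was the largest change of the 31. The Hyou1 call was lost without untreated WT replicate 1 or untreated KO replicate 2, with log2 changes of 0.68 and 0.62. It was kept with the replicate block (limma adjusted p = 2.21e-08), and replicate 2 exceeded replicate 1 in each group. Hspa13, an Hsp70-like ATPase of the ER, did not pass, at 62.8 and 61.1 CPM in KO, against 54.8 and 56.8 CPM in WT cells.

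J-domain co-chaperones steer BiP to its substrates, and here 3 of 5 genes of this class and its partner rose. Dnajc3 (p58IPK) was at 217 and 204 CPM in untreated KO cells, against 151 and 145 CPM in untreated WT cells (log2 change 0.50 ± 0.07, limma adjusted p = 0.00267). Sdf2l1, which works in a complex with the co-chaperone DNAJB11, was at 166 and 156 CPM in KO, against 103 and 94.6 CPM in WT cells (log2 change 0.69 ± 0.09, adjusted p = 0.00128). Dnajb11 (ERdj3) was at 270.3 and 276 CPM in KO, against 211 and 220.3 CPM in WT cells (log2 change 0.34 ± 0.06, adjusted p = 0.00723). The KO and WT libraries were apart for all of these. The call of Dnajb11 was lost without untreated WT replicate 1 (log2 change 0.31) or untreated KO replicate 2 (0.32). It was kept with the replicate block (limma adjusted p = 2.45e-05). Dnajb9 (ERdj4) was near the floor of the group in abundance, at 13.9 and 11.7 CPM in KO and 10.5 and 8.67 CPM in WT cells, and did not pass (adjusted p = 0.140, and 0.00662 with the replicate block). Dnajc10 (ERdj5), a reductase, overlapped between the groups, at 154 and 145 CPM in KO and 151 and 145 CPM in WT cells.

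Of the isomerases, 4 of 5 rose in untreated KO cells. Pdia4 (ERp72), a disulfide isomerase, was at 346 and 374 CPM in untreated KO cells, against 209.5 and 219 CPM in untreated WT cells (log2 change 0.75 ± 0.09, limma adjusted p = 0.000958). Ppib (cyclophilin B), which turns proline bonds, was at 178 and 175 CPM in KO, against 114 and 109.8 CPM in WT cells (log2 change 0.65 ± 0.07, adjusted p = 0.000359). Its exons share 25.0% of their length with a gene on the other strand, and since the strand setting of the counting is not given, reads of the 2 genes may not be separated. Such overlap covers 10.3% of the exons of Hsp90b1, 8.85% of those of Manf and 8.16% of those of Sec61a1. Pdia6 (P5) was at 713 and 749.6 CPM in KO, against 503 and 540.4 CPM in WT cells, a log2 change of 0.49 ± 0.06. Pdia3 (ERp57), the partner of the lectin chaperones, was at 1426 and 1398 CPM in KO, against 1035 and 1055 CPM in WT cells, a log2 change of 0.43 ± 0.06. The adjusted p of these changes were 0.000967 for Pdia6 and 0.00237 for Pdia3. P4hb, the founding protein disulfide isomerase, was at 1203 and 1394 CPM in KO and 969 and 1045 CPM in WT cells and did not pass (log2 change 0.36 ± 0.11, adjusted p = 0.0658, and 2.48e-05 with the replicate block).

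Both secreted ER stress proteins rose. Manf, a secreted trophic factor kept in the ER until stress, was at 259 and 228 CPM in untreated KO cells, against 154 and 148 CPM in untreated WT cells (log2 change 0.69 ± 0.09, limma adjusted p = 0.00155). Creld2, a secreted cysteine-rich protein induced by ER stress, was at 123 and 142 CPM in KO, against 76.0 and 89.9 CPM in WT cells (log2 change 0.67 ± 0.14, adjusted p = 0.0132), with no overlap for either gene. The Creld2 call was lost without untreated WT replicate 1 (log2 change 0.55) or untreated KO replicate 2 (0.57), and it was kept with the replicate block. Neither lectin chaperone passed without the replicate block, and both did with it. Calr was at 1863 and 2109 CPM in KO and 1483 and 1642 CPM in WT cells (log2 change 0.35 ± 0.14, adjusted p = 0.193, and 7.83e-05 with the block). Canx (calnexin), its membrane-bound relative, was at 1286 and 1331 CPM in KO and 1176 and 1190.2 CPM in WT cells (adjusted p = 0.391, and 0.0472 with the block).

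Of the sensors Ern1 and Atf6 and the transcription factor Xbp1, 0 of 3 passed in limma, 0 of 3 in edgeR and 0 of 3 at an unadjusted p under 0.05. Xbp1 was at 295 and 286 CPM in untreated KO cells, against 271 and 275 CPM in untreated WT cells, a log2 change of 0.09 ± 0.06 with a 95% interval from -0.04 to 0.22. Atf6 was at 223 and 249.8 CPM in KO and 234 and 251 CPM in WT cells, and the 2 groups overlapped (log2 change -0.04, 95% interval -0.27 to 0.19). Ern1 was lower in both KO libraries, at 14.4 and 14.98 CPM, against 17.2 and 19.2 CPM in WT cells (log2 change -0.29, 95% interval -0.59 to 0.02, limma adjusted p = 0.289, and 0.0162 with the replicate block).

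In the ERAD group 1 of 7 tested genes rose. It was Herpud1 (HERP), a membrane adaptor of the degradation complex, at 98.3 and 98.8 CPM in untreated KO cells, against 66.3 and 66.4 CPM in untreated WT cells. Both KO libraries lay above both WT libraries, and the log2 change was 0.56 ± 0.06 (limma adjusted p = 0.000290), the smallest adjusted p among the 31. The other 6 had log2 changes from -0.02 for the lectin Os9 to 0.23 for the ubiquitin ligase Syvn1 (HRD1), with Derl2 at 0.15, the adaptor Sel1l at 0.16, Derl1 at 0.18 and the mannosidase-like Edem1 at 0.22. None of these 6 passed in limma, although 5 of them, all but Os9, passed with the replicate block. In the translocon 1 of 3 rose: Ssr1, a subunit of the translocon-associated protein complex, at 482 and 461 CPM in KO, against 414 and 397 CPM in WT cells (log2 change 0.22 ± 0.05, adjusted p = 0.0318). Its call was lost without each of the 4 libraries in turn (adjusted p from 0.0793 to 0.228) and under the deposited scaling (adjusted p = 0.188). Sec61a1, the pore of the channel, and Sec61b, its small subunit, had log2 changes of 0.16 and 0.37 and did not pass, while with the replicate block both did (adjusted p = 0.00625 and 0.00132). Sec61b was higher in replicate 1 than in replicate 2 in 6 of 6 groups, by 0.32 to 0.73 on the log2 scale.

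**Figure D3:**
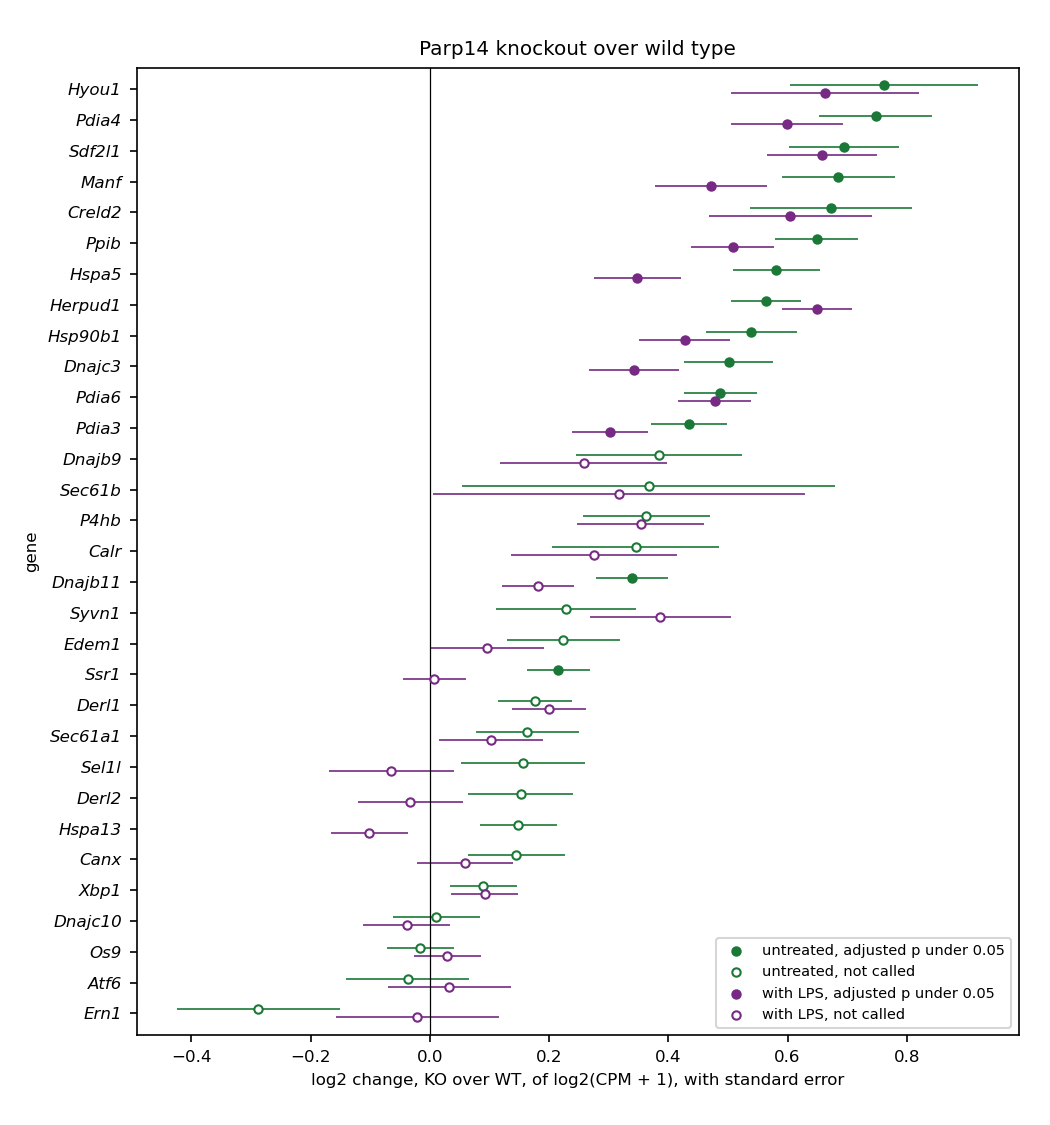
Log2 change of KO over WT cells for the 31 tested genes, untreated (green) and with LPS (purple), with standard errors. Filled points passed an adjusted p under 0.05 in limma. All filled points lie above 0, from 0.22 for Ssr1 to 0.76 for Hyou1 untreated, while Xbp1, Atf6 and Os9 lie near 0 and Ern1 lies below it in untreated cells.

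Other quantities were set beside these changes. Alignments with no unique position made up 33.2 to 34.9% of all counted alignments in the 4 KO libraries, against 28.6 to 32.1% in the 8 WT libraries. The summed level of the 8 macrophage markers overlapped in untreated cells, at 11303 to 13549 CPM in KO and 12353 to 14215 CPM in WT cells. With LPS this level was lower in KO cells, at 8957 to 10120 CPM, against 11526 to 11643 CPM in WT cells. Lyz2 was at 6051 to 10632 CPM over the 12 libraries, and the next highest marker, Csf1r, at 1184 to 2279 CPM. Lyz2 thus makes up much of the sum, which does not show how the markers changed one by one. The part of these quantities in the result was not tested. Of the 3 plasma cell markers, Jchain and Mzb1 were near 0 in every library and Sdc1 was at 19.2 to 40.5 CPM, as given above.

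Promoter elements and the change in KO cells were set side by side. Of the 10 tested genes with ERSE or ERSE-II in the window, 7 were higher in untreated KO than in untreated WT cells, and their median log2 change was 0.49. Of the 15 tested genes with a window and neither element, 5 were higher, and the median was 0.22. Pdia4, Sdf2l1, Ppib, Pdia3 and Ssr1 were higher without either element, and Calr, Canx and Syvn1 hold ERSE and passed only with the replicate block. Under the block 10 of the 10 genes with an element were higher, and 11 of the 15 with neither, where 1, Ern1, was lower. Among all tested genes 4.31% were higher without the block and 10.9% with it. The change of the other 38 genes with an element was not looked at. The difference between the 2 sets was not tested.

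The second comparison set KO against WT cells that had both received LPS. Here 12 of the 31 genes rose and 0 fell in limma, against 6.19% higher and 7.66% lower among all tested genes. At an unadjusted p under 0.05 there were 16 higher and 0 lower, against 11.6% and 13.6%, and edgeR gave 12 higher and 0 lower, against 6.15% and 7.72%. Under the replicate block 19 rose and 0 fell, against 14.9% and 16.7% of all tested genes. The 12 genes were also among the 14 that rose in untreated cells, in libraries that the untreated comparison did not use. Both comparisons share the fit, and genotype and clone cannot be told apart in either, so the overlap is not independent support. Ratios of group means ran from 1.23 to 1.59 among the 12, and the median log2 change of the 31 was 0.28, against 0.00 over all tested genes. The 32 genes together took 1.55 and 1.68% of gene reads in KO libraries with LPS, against 1.27 and 1.32% in WT libraries with LPS.

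Among the chaperones, Hspa5 was at 3420.2 and 3622 CPM in KO cells with LPS, against 2770.1 and 2761 CPM in WT cells with LPS (log2 change 0.35 ± 0.07, limma adjusted p = 0.0113). Hyou1 was at 682 and 844 CPM in KO, against 443 and 518 CPM in WT cells, and Hsp90b1 at 2202 and 2386 CPM in KO, against 1718 and 1691 CPM in WT cells. Their log2 changes were 0.66 ± 0.16 and 0.43 ± 0.08. For each of these chaperones both KO libraries exceeded both WT libraries. Sdf2l1 was at 95.5 and 88.6 CPM in KO, against 57.9 and 58.0 CPM in WT cells, and Dnajc3 at 144 and 141 CPM in KO, against 118 and 107 CPM in WT cells, with log2 changes of 0.66 ± 0.09 and 0.34 ± 0.07. Dnajb11, at 223 and 241 CPM in KO and 202 and 207 CPM in WT cells, and Ssr1, at 374 and 370.3 CPM in KO and 370.3 and 370.1 CPM in WT cells, were the 2 genes called in untreated cells that did not pass with LPS (adjusted p = 0.0848 and 0.963). With the replicate block Dnajb11 passed (adjusted p = 0.00341).

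With LPS 4 of 5 isomerases, both secreted proteins and 1 of 7 ERAD genes rose. Pdia4 was at 190.3 and 219 CPM in KO cells with LPS, against 130.4 and 139 CPM in WT cells with LPS (log2 change 0.60 ± 0.09, limma adjusted p = 0.00253). The changes of Ppib, Pdia6 and Pdia3 were 0.51, 0.48 and 0.30 on the log2 scale, with both KO libraries above both WT libraries for each. Creld2 was at 106 and 122 CPM in KO, against 67.5 and 82.2 CPM in WT cells (log2 change 0.60 ± 0.14), and Manf at 212 and 186 CPM in KO, against 146 and 141 CPM in WT cells (log2 change 0.47 ± 0.09). Herpud1 had again the smallest adjusted p, at 286 and 287 CPM in KO, against 173 and 192 CPM in WT cells (log2 change 0.65 ± 0.06, adjusted p = 0.000104). Calr, Canx, P4hb, Xbp1, Atf6 and Ern1 did not pass, with log2 changes of 0.28, 0.06, 0.35, 0.09, 0.03 and -0.02. Calr and P4hb passed with the replicate block (adjusted p = 0.000418 and 2.39e-05), as did Dnajb9, Syvn1, Derl1 and Sec61b (0.0467, 0.000197, 0.00166 and 0.00305). Leaving out a library leaves 1 in its group, so a call lost in this way does not show that it rests on that library. Without KO LPS replicate 2 the calls of Creld2, Dnajc3, Hspa5, Hyou1 and Pdia3 were lost. Their log2 changes were then 0.51, 0.36, 0.31, 0.51 and 0.24. Without KO LPS replicate 1 the calls of Dnajc3 and Manf were lost (log2 changes 0.33 and 0.38). Without WT LPS replicate 1 those of Creld2, Hspa5 and Hyou1 were lost (0.47, 0.35 and 0.55). Without WT LPS replicate 2 those of Dnajc3, Hspa5, Manf and Pdia3 were lost (0.27, 0.35, 0.44 and 0.29). The Hspa5 call was also lost with no filter on low values (adjusted p = 0.0873).

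**Figure D4:**
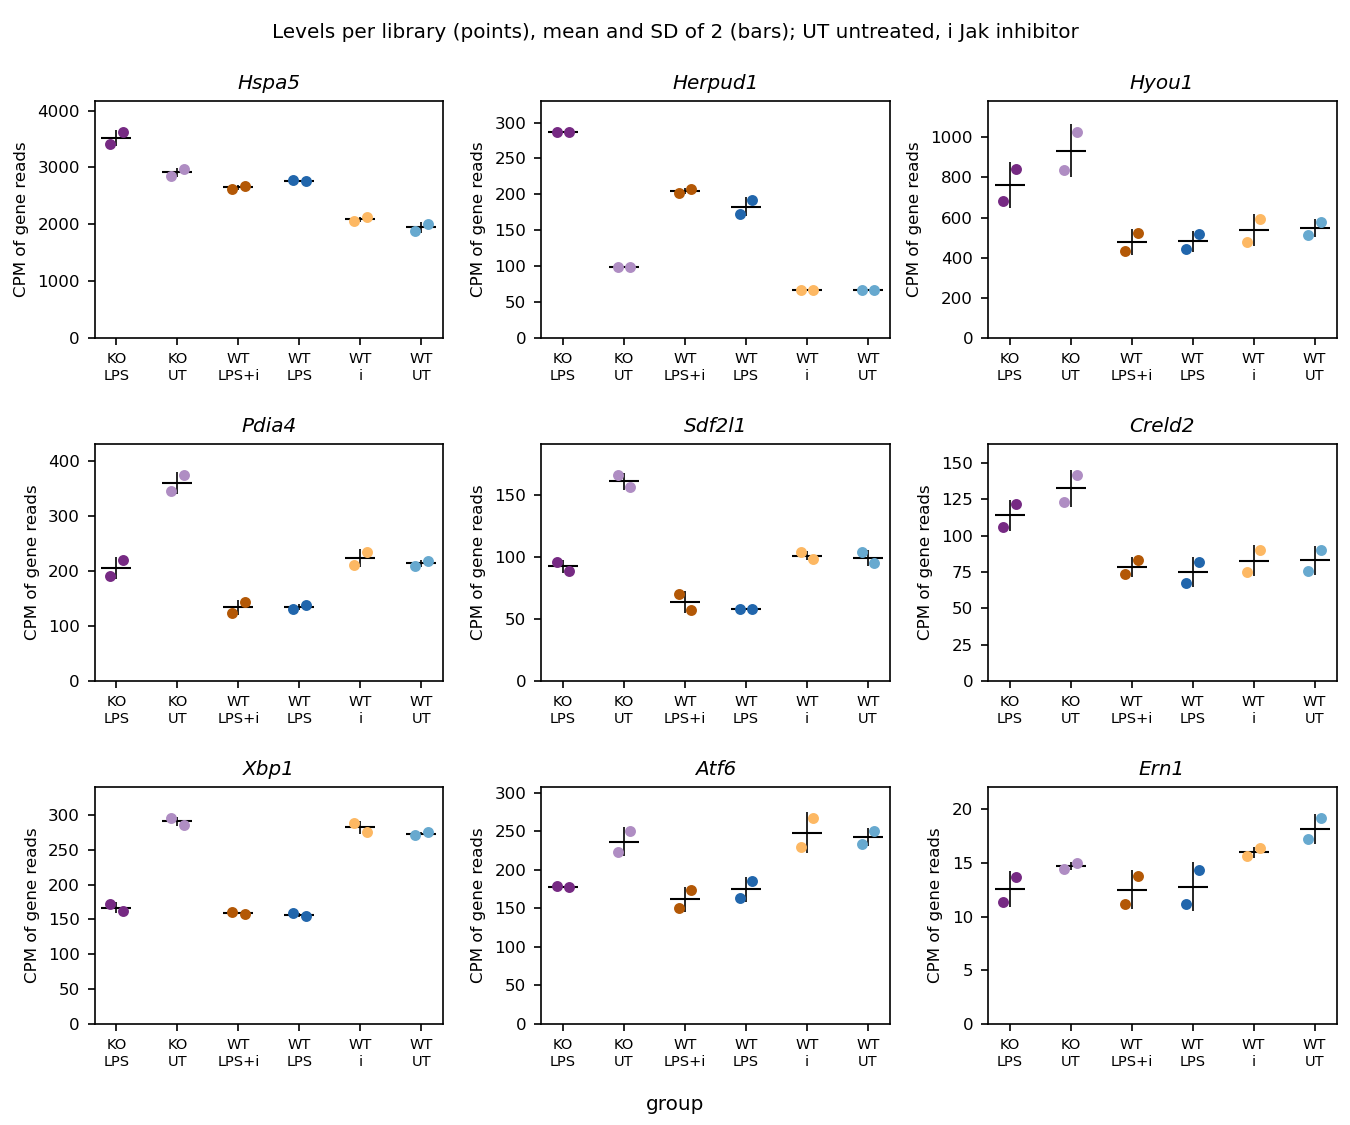
CPM of 9 genes in each library (points), with the mean (horizontal bar) and SD of the 2 libraries of a group (vertical bar), on linear axes that start at 0. Groups run from KO with LPS at the left to untreated WT at the right, with LPS+i for LPS plus Jak inhibitor and UT for untreated. Hspa5, Hyou1, Pdia4, Sdf2l1, Creld2 and Herpud1 are higher in KO than in WT cells of the same treatment, and Xbp1 is lower with LPS in all backgrounds.

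The third comparison asked what 2 h of LPS did, and in KO and WT cells it uses the untreated libraries of the first comparison again. LPS lowered the measured share of most genes, so that the median log2 change of all tested genes was -0.29 in KO, -0.27 in inhibitor-treated WT and -0.30 in WT cells, and changes of single genes are given with this shift in view. In KO cells 3 of the 31 genes rose and 20 fell, against 13.9% higher and 52.7% lower among all tested genes. In inhibitor-treated WT cells 3 rose and 16 fell, against 13.5% and 50.8%, and in WT cells 2 rose and 13 fell, against 13.7% and 53.6%. The median log2 change of the 31 was -0.28 in KO, -0.29 in inhibitor-treated WT and -0.16 in WT cells. After rescaling by the median of ratios, which removes most of the shift, 5 rose and 8 fell in KO cells, against 26.7% and 33.1% of all tested genes. In inhibitor-treated WT cells 6 rose and 8 fell, and in WT cells 8 rose and 5 fell, each against 26.4% and 32.5%. With the replicate block 3 rose and 25 fell in KO cells, against 18.3% and 62.2%, and 6 rose and 21 fell in inhibitor-treated WT cells, against 18.4% and 59.7%. In WT cells 5 rose and 21 fell with the block, against 18% and 62.8%.

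Herpud1 had the largest change of the 31 in each background. It was at 286 and 287 CPM in KO cells with LPS, against 98.3 and 98.8 CPM in untreated KO cells (log2 change 1.53 ± 0.06, limma adjusted p = 3.02e-08). With the inhibitor it was at 201 and 207 CPM in WT cells with LPS, against 66.2 and 66.2 CPM in WT cells without LPS (log2 change 1.61 ± 0.06). In WT cells it was at 173 and 192 CPM with LPS, against 66.3 and 66.4 CPM untreated (log2 change 1.45 ± 0.06). These are ratios of group means of 2.91, 3.09 and 2.75, and the LPS libraries lay far above the others in each background.

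Hspa5 was the other gene called higher in each background. It was at 3420.2 and 3622 CPM in KO cells with LPS, against 2856 and 2966 CPM in untreated KO cells (log2 change 0.27 ± 0.07, limma adjusted p = 0.00764). It was at 2617 and 2680.5 CPM in inhibitor-treated WT cells with LPS, against 2056 and 2122 CPM without (log2 change 0.34 ± 0.07), and at 2770.1 and 2761 CPM in WT cells with LPS, against 1881 and 2012 CPM untreated (log2 change 0.51 ± 0.07). In KO cells its call was lost without untreated KO replicate 1 (adjusted p = 0.0514), without KO LPS replicate 2 (0.0570) and with no filter on low values (0.0619). Syvn1, the ligase of the degradation complex, rose in KO cells, at 79.8 and 86.9 CPM with LPS, against 63.7 and 69.7 CPM untreated (log2 change 0.32 ± 0.12, adjusted p = 0.0365), a call lost without each of the 4 libraries in turn (adjusted p from 0.0508 to 0.173) and with no filter (0.0596). Sec61a1 rose in inhibitor-treated WT cells, at 398 and 436 CPM with LPS, against 341 and 372 CPM without (log2 change 0.22 ± 0.09, adjusted p = 0.0448). Its call was lost without WT inhibitor replicate 1 (adjusted p = 0.224), without WT LPS plus inhibitor replicate 2 (0.222) and with no filter (0.0703).

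Several genes fell further than the shift of all genes, and did so also after the rescaling. Xbp1 was at 173 and 161 CPM in KO cells with LPS, against 295 and 286 CPM in untreated KO cells, and at 159 and 154 CPM in WT cells with LPS, against 271 and 275 CPM in untreated WT cells. In inhibitor-treated WT cells it was at 159.9 and 158 CPM with LPS, against 289 and 275 CPM without. Its log2 changes were -0.80 in KO, -0.82 in inhibitor-treated WT and -0.80 in WT cells, each with a standard error of 0.06, and -0.52, -0.56 and -0.51 after the rescaling. Pdia4 was at 190.3 and 219 CPM in KO cells with LPS, against 346 and 374 CPM in untreated KO cells, and its log2 changes were -0.82, -0.74 and -0.67 in the same order of backgrounds. Sdf2l1 changed by -0.80, -0.66 and -0.76, and Derl1, a membrane protein of the ERAD channel, by -0.47, -0.49 and -0.49. Dnajb9, a co-chaperone that binds IRE1, was at 6.20 and 5.81 CPM in KO cells with LPS, against 13.9 and 11.7 CPM in untreated KO cells, with log2 changes of -0.98, -0.81 and -0.85. These 5 genes were called lower in all 3 backgrounds, before and after the rescaling.

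Atf6 fell in all 3 backgrounds and Ern1 in WT cells. Atf6 was at 179 and 177 CPM in KO cells with LPS, against 223 and 249.8 CPM in untreated KO cells, and at 163 and 186 CPM in WT cells with LPS, against 234 and 251 CPM in untreated WT cells. Its log2 changes were -0.41, -0.62 and -0.47 in KO, inhibitor-treated WT and WT cells, and after the rescaling the call was kept in inhibitor-treated WT cells (-0.36) and not in KO (-0.13) or WT cells (-0.19). Ern1 was at 11.4 and 13.7 CPM in KO cells with LPS, against 14.4 and 14.98 CPM untreated, and at 11.2 and 14.4 CPM in WT cells with LPS, against 17.2 and 19.2 CPM untreated. In KO cells it passed only with the replicate block (log2 change -0.22, adjusted p = 0.180, and 0.0206 with the block), and its log2 change was 0.04 after the rescaling. It fell in WT cells (log2 change -0.49, limma adjusted p = 0.0100), which was lost after the rescaling and without untreated WT replicate 2 (adjusted p = 0.0669) or WT LPS replicate 1 (0.0894). Dnajc3 and the ERAD gene Edem1 were also lower after the rescaling in KO and inhibitor-treated WT cells, and Derl2 in KO cells. Many of the 31 genes had a negative log2 change as given by gene reads and a positive one after the rescaling, 10 in KO, 8 in inhibitor-treated WT and 14 in WT cells. Of those called lower, they were Hsp90b1, Dnajb11, Hspa13, Pdia6 and Ppib in KO cells, Ppib in inhibitor-treated WT cells and Dnajc10 and Pdia6 in WT cells, and in edgeR also Canx, Pdia3 and Manf in KO cells. Of those not called in WT cells, Dnajb11 (log2 change -0.08, and 0.21 after the rescaling, adjusted p = 0.0222) and Ssr1 (-0.13, and 0.16 after the rescaling, adjusted p = 0.0251) were higher after it. The other genes called higher after and not before the rescaling were Syvn1 in both WT backgrounds, Sec61a1 in KO and WT cells, Sel1l in all 3 backgrounds and Hspa13 in both WT backgrounds.

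**Figure D5:**
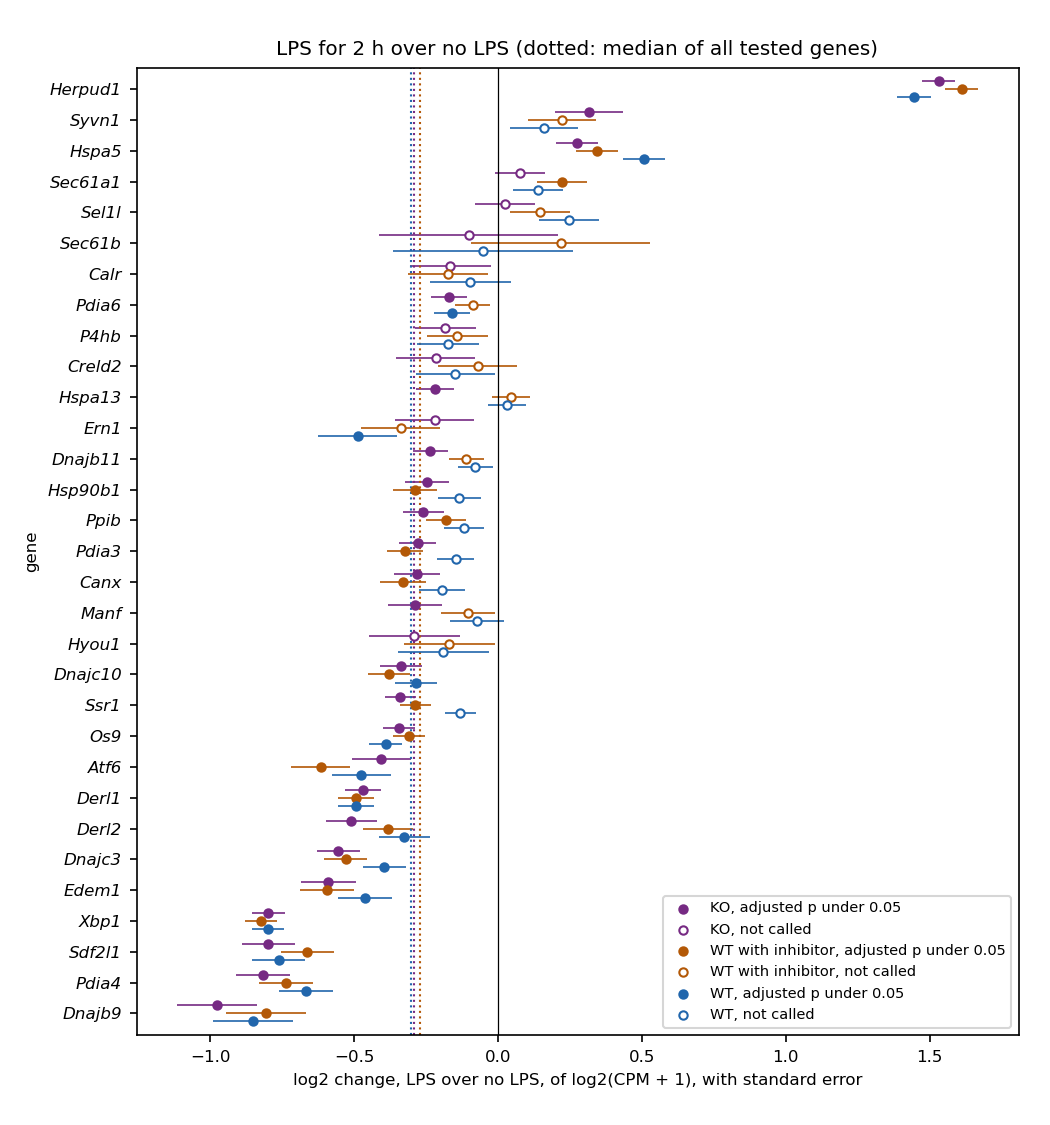
Log2 change of LPS over no LPS for the 31 tested genes in KO (purple), inhibitor-treated WT (orange) and WT cells (blue), with standard errors; filled points passed an adjusted p under 0.05 in limma. Dotted lines mark the median of all tested genes in each background, between -0.30 and -0.27. Herpud1 lies at 1.45 to 1.61, Hspa5 to the right of 0, and Xbp1, Sdf2l1, Pdia4 and Dnajb9 at the left, while some genes near the dotted lines change sign when the libraries are rescaled by the median of ratios.

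Whether the genotype changed the LPS response was tested as the difference of the 2 responses, which share no control samples. None of the 31 genes differed at an adjusted p under 0.05 in limma, against 0.128% higher and 0.284% lower among all tested genes. At an unadjusted p under 0.05 there were 3, against 6.18% of all tested genes, all with a lower response in KO cells: Hspa5 (difference -0.23 ± 0.10 on the log2 scale, adjusted p = 0.808), Hspa13 (-0.25 ± 0.09, adjusted p = 0.591) and Ssr1 (-0.21 ± 0.08, adjusted p = 0.582). The count was 0 in edgeR, where 0.0918% of all tested genes were called, and 0 with the replicate block, where 3.79% were called. For 28 of the 31 the 95% interval of the difference lay within a 1.5-fold change in either direction. A miss of the threshold does not show equal responses, and the median half-width of these intervals was 0.275 on the log2 scale. For Herpud1 the difference was 0.09 ± 0.08, and for Xbp1 it was 0.00 ± 0.08. The median difference of the 31 was -0.09, against 0.00 over all tested genes, and 7 of the 31 differences were positive. This lean of the set to a lower response in KO cells was not tested.

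The Jak inhibitor left no called change among the 31 genes. Without LPS, 0 were called in limma, 0 in edgeR and 0 at an unadjusted p under 0.05, in a comparison where 0% of all tested genes were called and 111 (1.02%) had an unadjusted p under 0.05. Hspa5 was at 2056 and 2122 CPM in inhibitor-treated WT cells, against 1881 and 2012 CPM in untreated WT cells, and Herpud1 at 66.2 and 66.2 CPM, against 66.3 and 66.4 CPM. With LPS, 0 of the 31 were called in limma and 0 in edgeR, against 0.0734% higher and 1.04% lower among all tested genes, and 1, Herpud1, had an unadjusted p under 0.05, against 7.22% of all tested genes, at 201 and 207 CPM with inhibitor and LPS, against 173 and 192 CPM with LPS alone (log2 change 0.16, adjusted p = 0.540). In edgeR 0% of all tested genes were called without LPS and 1.12% with LPS. In both comparisons the 95% interval lay within a 1.5-fold change for 30 of the 31 genes. In the exception, Sec61b, the replicates were the furthest apart. For comparison, Parp14 was at 109.8 and 138 CPM in WT cells with inhibitor and LPS, against 315 and 419 CPM with LPS alone (log2 change -1.56, adjusted p = 0.00403). The difference of the LPS response with minus without inhibitor was called for 0 of the 31 in limma, 0 in edgeR and 0 at an unadjusted p under 0.05. Among all tested genes 0.0184% were higher and 0.569% lower in limma, 0.523% were called in edgeR and 6.82% had an unadjusted p under 0.05.

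A wider set of 114 other ER genes, listed by function but with earlier results of these data known, was read from the same fit, and 109 of them were tested. In untreated cells 8 were higher and 1 lower in KO than in WT cells, against 4.31% and 5.37% of all tested genes, with 37 higher and 5 lower under the replicate block, against 10.9% and 13.7%. The pseudokinase Trib3, a target of ATF4 and CHOP, was at 4.81 and 5.10 CPM in untreated KO cells, against 1.75 and 1.47 CPM in untreated WT cells (log2 change 1.19 ± 0.19, limma adjusted p = 0.00329). Fkbp11, a proline isomerase of secretory cells, was at 16.2 and 15.7 CPM in KO, against 7.68 and 7.35 CPM in WT cells (log2 change 0.99 ± 0.09, adjusted p = 0.000143). The isomerase Ppic and the oligosaccharyltransferase subunit Rpn1 had log2 changes of 0.41 and 0.35, and the second Sec61 pore gene, Sec61a2, fell to 11.7 and 12.4 CPM in KO, against 16.1 and 16.4 CPM in WT cells (log2 change -0.40). By class, 1 of 15 tested sensors and signalling genes rose, 6 of 35 folding enzymes, 0 of 22 translocation genes, where 1 fell, 1 of 12 oligosaccharyltransferase genes and 0 of 25 further ERAD genes.

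With LPS, 10 of the 109 were higher and 1 lower in KO than in WT cells, against 6.19% and 7.66% of all tested genes. Under the replicate block 28 were higher and 9 lower, against 14.9% and 16.7%. Chac1, an ATF4 target that breaks down glutathione, was at 9.82 and 6.39 CPM in KO cells with LPS, against 2.39 and 0.902 CPM in WT cells with LPS (log2 change 1.82 ± 0.34, limma adjusted p = 0.00661). Trib3 was at 7.18 and 4.38 CPM in KO, against 1.20 and 0.780 CPM in WT cells (log2 change 1.74 ± 0.19, adjusted p = 0.000270). Both genes are low in these cells, and the KO libraries lay above the WT libraries for each. Fkbp11 changed by 0.92, the isomerase Pdia5 by 0.37, Rpn1 by 0.27 and the signal recognition particle receptor Srpr by 0.40 on the log2 scale, the last with its call lost after the rescaling (adjusted p = 0.0561). Sec61a2 changed by -0.35.

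LPS raised 6 and lowered 43 of the 109 in KO cells, against 13.9% and 52.7% of all tested genes. In inhibitor-treated WT cells 6 were higher and 40 lower, against 13.5% and 50.8%, and in WT cells 8 were higher and 42 lower, against 13.7% and 53.6%. After the rescaling 35 were higher and 17 lower in KO cells, against 26.7% and 33.1% of all tested genes. In inhibitor-treated WT cells these counts were 38 and 18 and in WT cells 36 and 18, each against 26.4% and 32.5%. With the replicate block 12 were higher and 56 lower in KO cells, against 18.3% and 62.2%, 13 and 53 in inhibitor-treated WT cells, against 18.4% and 59.7%, and 14 and 56 in WT cells, against 18% and 62.8%. Ppp1r15a (GADD34), which ends the translation block set by PERK, was at 223 and 154 CPM in KO cells with LPS, against 19.1 and 15.1 CPM in untreated KO cells, and at 290.1 and 242 CPM in WT cells with LPS, against 18.3 and 15.3 CPM in untreated WT cells. Its log2 changes were 3.37, 3.56 and 3.91 in KO, inhibitor-treated WT and WT cells. The transcription factor Atf4 rose by 0.53, 0.40 and 0.47 in the same order. Eif2ak3, which encodes PERK, fell to 10.7 and 13.6 CPM in KO cells with LPS, against 34.0 and 38.0 CPM in untreated KO cells, and its log2 changes were -1.50, -1.34 and -1.49. The ERAD gene Erlin1 changed by -1.15, -1.10 and -1.04 and the thioredoxin-like Tmx2 by -1.26, -1.05 and -1.15. All of these kept their direction and call after the rescaling.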

How the data were processed

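The mRNA of 12 RAW 264.7 libraries was sequenced, and the authors deposited 1 table of CPM values (counts per 1000000) per gene. The submitters' processing notes name TopHat2 2.1.0, HTSeq and edgeR, and the builds mm10 and GRCm38. For counting, neither strand setting nor annotation is stated in the sources used here. The deposited CPM were divided by all counted alignments, including 5 HTSeq summary lines (alignments with no unique position were 28.6 to 34.9% of the total, those outside genes 5.00 to 6.37% and ambiguous ones 0.994 to 1.13%). These lines were left out and each library's CPM was set relative to its own gene reads, about 35900000 to 45700000. Another 4 per-sample columns match no label and were not used. Whole reads were recovered for 100% of the values within 0.02 reads.

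The 10899 genes that reached 1 CPM in 2 or more libraries were fitted as log2(CPM + 1) with 6 group means in limma 3.58.1 (R 4.3.3, trended variance, 6 residual degrees of freedom, prior 3.54), and contrasts were tested two-sided with Benjamini-Hochberg adjustment over all of them. "Rose" and "fell" mean an adjusted p under 0.05, and a fold change on this scale understates the change of low genes. The code was tested on simulated data. Alternatives were a pseudocount of 0.25, no filter, rescaling by the median of ratios, the deposited scaling, the replicate number as a block, edgeR 4.0.16 (quasi-likelihood, TMM) on recovered reads, and each library left out in turn. Replicate numbers come from the labels. Samples with the same number deviated together from their group means, with correlations of 0.468 to 0.737 over the 15 pairs of groups, so the numbers pair the samples. The main fit leaves this pairing out, and the shared difference stays in its standard errors and intervals. A gene that did not pass in it can therefore pass with the block, and the counts with the block are given beside it. Replicates of a group differed by more than sampling noise (chi-square per degree of freedom 16.4 to 33.5).

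All 32 genes could be named. From each list of other ER genes, the 2 with the largest called change in each direction could be named, and Parp14 as the check of the knockout. The genes and lists were chosen with earlier results of these data known. Promoter windows come from RefSeq (GRCm38.p6), and exon lengths from GENCODE M21. Figures were drawn in Python 3.11.15.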

Additional observations from a re-analysis of the deposited data

Results flagged for a closer look

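For 5 genes both libraries of the compared groups lay apart in opposite directions under the same contrast, and in each case the test of the difference itself did not pass in limma. How many of all tested genes do the same was not counted, so the 5 cannot be set against a background and are not a result about these genes. Hspa13 had a log2 change of KO over WT cells of -0.10 with LPS and of 0.15 untreated, a difference of -0.25 (adjusted p = 0.591). The other 4 concern the inhibitor in WT cells. Hspa5 had a log2 change with the inhibitor of -0.06 with LPS and of 0.10 without, a difference of -0.16 (adjusted p = 0.863). Pdia3 differed by -0.18 (adjusted p = 0.785), Ssr1 by -0.16 (adjusted p = 0.783) and Herpud1 by 0.17 (adjusted p = 0.785) between the same comparisons. Without LPS, Herpud1 was nearly unchanged, at 66.2 and 66.2 CPM with the inhibitor, against 66.3 and 66.4 CPM untreated, so its values show no reversal.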

How the results depend on the processing

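Of 83 called single-gene results, 83 kept direction and call with a pseudocount of 0.25 and 83 with the replicate block, 81 under the deposited scaling, 76 with no filter, 55 after rescaling by the median of ratios and 55 in edgeR; 59 kept them without each library in turn. The replicate block changed counts of calls, to 25 higher and 1 lower in untreated KO against WT cells. In KO against WT cells with LPS it gave 19 higher. For LPS the block gave 3 higher and 25 lower in KO cells. It gave 6 higher and 21 lower in inhibitor-treated WT cells and 5 higher and 21 lower in WT cells. It ended no call. The response to LPS depends on scaling. By the median of ratios, 5 genes were higher and 8 lower in KO, 6 and 8 in inhibitor-treated WT and 8 and 5 in WT cells, with medians of -0.0008, -0.0260 and 0.13. In edgeR it was 5 and 8, 8 and 8, and 9 and 5, with medians of 0.0168, -0.0003 and 0.15. Signs reversed by the median of ratios for Hsp90b1 (0.0318), Hspa13 (0.0544), Dnajb11 (0.0410), Pdia6 (0.11) and Ppib (0.0175) in KO cells, Ppib (0.0782) in inhibitor-treated WT and Dnajc10 (0.0003) and Pdia6 (0.13) in WT cells. In edgeR they reversed for Hsp90b1 (0.0492), Hspa13 (0.0712), Dnajb11 (0.0585), Canx (0.0152), Pdia3 (0.0168), Pdia6 (0.12), Ppib (0.0335) and Manf (0.0033) in KO cells, Ppib (0.10) in inhibitor-treated WT and Dnajc10 (0.0231) and Pdia6 (0.15) in WT cells. With no filter 1 gene was higher with LPS in KO cells. Under the deposited scaling the median of untreated KO against WT cells was 0.26. Without each library in turn that median was 0.26 to 0.31, with 10 to 13 higher, and KO against WT with LPS gave 7 to 10 higher. LPS gave 1 to 2 higher in KO cells (1 without untreated KO replicate 1 or KO LPS replicate 2) and 2 to 4 in WT cells (4 without WT LPS replicate 1). Beyond the median of ratios and edgeR, which remove the shift of all genes by construction, the cause was not tested. Derl3, with 1 to 7 reads in a library, could not be compared at this depth.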
